A study of Solanum lycopersicum with 12 samples.

Results

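Among the tomato (Solanum lycopersicum) genes that make and remove gamma-aminobutyric acid (GABA), 5 were followed through ripening in a red and a yellow tomato: the glutamate decarboxylase genes GAD1, GAD2 and GAD3 and the GABA transaminase genes GABA-TP1 and GABA-TP3. They were taken by gene identifier, and all 5 were found among the 24215 genes of the deposited table. Messenger RNA had been sequenced from fruits of red tomato number 20 and yellow tomato number 19, which the series calls closely related, at maturity (55 days after anthesis) and at color break (40 days after anthesis, when green fruit begins to turn). The 4 groups were red at maturity, yellow at maturity, red at color break and yellow at color break, each with 3 libraries and no treatment named. Nothing in the labels ties a replicate to a plant of its own or says if seeds were taken out. The p-values therefore cover the variation among the sequenced libraries alone, and this may be technical. GABA itself was not measured in the data used here.

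GABA is a non-protein amino acid that tomato fruit stores in large amounts while green and mostly uses up as it ripens. Glutamate decarboxylases make it in the cytosol by removing a carboxyl group from glutamate, and plant enzymes of this family are switched on by calcium-bound calmodulin. GABA transaminases then move the amino group to pyruvate or glyoxylate, and succinic semialdehyde dehydrogenase turns the product into succinate for the tricarboxylic acid cycle. This side path around part of the cycle is called the GABA shunt. In earlier work on tomato, GAD2 and GAD3 have been linked to GABA formation in developing fruit, GABA-TP1 codes for the mitochondrial transaminase and GABA-TP3 for the plastid one.

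Total counts per library ran from 50963462 to 60854667. Of the 24215 genes, 15974 reached 1 FPKM (a fragment count divided by gene length and library size) in at least 3 libraries and were tested, among them all 5 GABA genes. A gene was called when its adjusted p in edgeR's quasi-likelihood test was under 0.05 and its log2 fold change was at least 1 in size. The fruit gene PG2A, a polygalacturonase of ripening fruit, was present in all 12 libraries, at 558 to 5650 FPKM. Its mean was 591 FPKM in red at maturity and 5607 in yellow at maturity. At color break it was 4418 in red and 4461 in yellow. PG2A was called as lower in red at maturity than in yellow at maturity (log2 fold change -3.38) and in red at color break (-3.06). In yellow its stage change was 0.31 and was not called. A further ripening gene, the ethylene-responsive E8, had smaller changes in red at maturity. It had -0.63 against yellow at maturity and -0.54 against red at color break. In yellow its stage change was -0.19, and none of these changes of E8 was called. How PG2A and E8 bear on the GABA genes was not tested. In red at maturity the deposited FPKM ran higher than the scaled counts: the median log2(FPKM + 1) difference of all tested genes was 0.12 against yellow at maturity and 0.14 against red at color break, and the fold changes given here come from the scaled counts. Replicate 1 of red at maturity stood apart in the seed markers, 4 oleosin genes that coat seed oil bodies, with a summed 15.6 FPKM where the lowest library of that group had 1.16.

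The 5 genes lie on 5 chromosomes. In the coordinates of the deposited table, whose genome build is not given in the sources used here, GAD1 (Solyc03g098240) spans chromosome 3 from 62031070 to 62035654 on the plus strand. GAD2 (Solyc11g011920) spans chromosome 11 from 4848667 to 4855621 on the minus strand, and GAD3 (Solyc01g005000) chromosome 1 from 12923 to 15102 on the plus strand. GABA-TP1 (Solyc07g043310) spans chromosome 7 from 57117187 to 57124219 on the plus strand, and GABA-TP3 (Solyc12g006450) chromosome 12 from 921556 to 927571 on the minus strand. The ratio of counts to FPKM implied a length of 2007 bases for GAD3, close to its span of 2180 bases, whereas the other 4 genes spanned 4585 to 7033 bases for implied lengths of 2418 to 2720 bases. Such lengths are approximate and can be too long: for a further shunt gene, SSADH1, the implied 1836 bases exceeded the span of 1569 bases. Of the 5 genes, the table annotates GAD1 alone with calmodulin binding.

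On the per-length FPKM scale the levels differed widely between the genes. GAD1 was the most abundant in every group and ranked 138th of the 15974 tested genes in red at maturity, and 224th to 234th in the other groups. GABA-TP1 came next, with 83.9% to 91.8% of tested genes below it. GAD3 was the least abundant, with 23.2% of tested genes below it in red at maturity and 8.9% in yellow at color break. GAD2 and GABA-TP3 held the places between, and their order was not the same in every group. Red at maturity had 19.7 ± 0.332 FPKM of GAD2 (mean ± SD, n = 3 here and below) and 5.65 ± 0.218 of GABA-TP3. Yellow at maturity had 9.75 ± 0.425 of GAD2 and 9.06 ± 0.557 of GABA-TP3, and there the libraries of the genes overlapped. At color break GABA-TP3 was the more abundant of the pair, with 13.3 ± 1.20 FPKM in red, where GAD2 had 8.31 ± 0.240, and 13.6 ± 0.287 FPKM in yellow, where GAD2 had 6.17 ± 0.681.

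**Figure D1:**
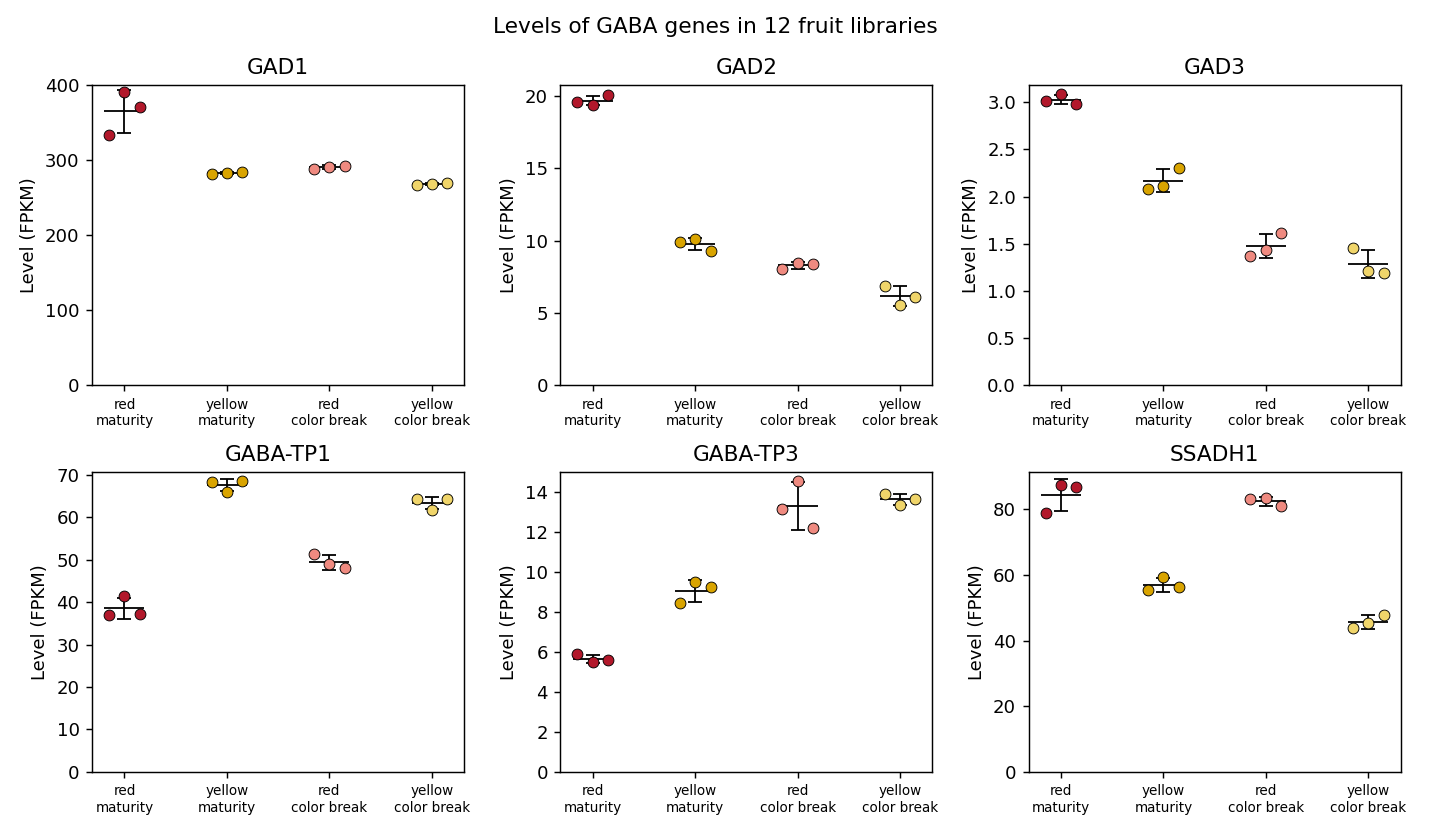
Level in FPKM (vertical axis, from 0) of the 5 GABA genes and of SSADH1, the next enzyme of the shunt, in each library of the 4 groups (horizontal axis). Points are libraries, bars are the mean and SD of 3. Red at maturity is the highest group for the 3 GAD genes (GAD2 at 19.4 to 20.1 FPKM) and the lowest for GABA-TP1 and GABA-TP3 (GABA-TP3 at 5.48 to 5.90 FPKM).

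GAD1, the most abundant decarboxylase gene, differed little. Its libraries held 334, 391 and 372 FPKM in red at maturity, 282, 283 and 285 in yellow at maturity, 288, 291 and 293 in red at color break, while yellow at color break had 267, 268 and 270. The 3 highest libraries were those of red at maturity, which also differed most among themselves, and the groups did not overlap in any of the 4 comparisons. The log2 fold change of red against yellow was 0.23 ± 0.04 (SE) at maturity (edgeR adjusted p = 0.00019) and 0.12 ± 0.04 at color break (adjusted p = 0.0273, or 0.000785 to 0.0905 with single libraries left out). Maturity against color break gave 0.17 ± 0.04 in red (adjusted p = 0.00165) and 0.06 ± 0.04 in yellow (adjusted p = 0.28). None of these reached the minimum change, and 43.1% of tested genes had a smaller absolute difference between red and yellow at maturity. The scaling moved these values by over 1.5 times: on log2(FPKM + 1) red against yellow at maturity was 0.36 and maturity against color break in red 0.33.

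GAD2 was the decarboxylase gene called between the stages in red. It stood at 19.6, 19.4 and 20.1 FPKM in red at maturity, 9.88, 10.1 and 9.28 in yellow at maturity, 8.03, 8.48 and 8.40 in red at color break, while yellow at color break had 6.88, 5.52 and 6.11. Every library of red at maturity was thus above every other library, and the groups did not overlap in any comparison. In red fruit GAD2 rose 2.12-fold between the stages (log2 fold change 1.09 ± 0.07, adjusted p = 1.48e-08). In yellow fruit the change was 1.55-fold (0.64 ± 0.07, adjusted p = 1.25e-05), short of the minimum. Red against yellow was 0.87 ± 0.07 at maturity (adjusted p = 2.21e-07) and 0.43 ± 0.07 at color break (adjusted p = 0.000421), both under the minimum. On log2(FPKM + 0.1) the difference at maturity was 1.01 and was called.

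GAD3, the least abundant of the decarboxylase genes, held 3.02, 3.09 and 2.99 FPKM in red at maturity, from 319, 337 and 334 counts. Yellow at maturity held 2.08, 2.11 and 2.31, red at color break 1.37, 1.43 and 1.62, and yellow at color break 1.45, 1.21 and 1.19. Both maturity groups lay above both color break groups, while the lines overlapped at color break. Maturity against color break was 0.88 ± 0.13 in red (adjusted p = 4.34e-05) and 0.73 ± 0.13 in yellow (adjusted p = 0.000556), neither of them called. Red against yellow was 0.35 ± 0.13 at maturity (adjusted p = 0.0315), and the adjusted p ran from 0.0251 to 0.0874 when single libraries were left out. At color break it was 0.20 ± 0.13 (adjusted p = 0.257), with a 95% interval of -0.11 to 0.51.

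GABA-TP1, the mitochondrial transaminase gene, had the largest log2 difference of the 5 between the lines at maturity on the scaled counts. Its libraries held 37.0, 41.3 and 37.2 FPKM in red at maturity, 68.4, 66.0 and 68.6 in yellow at maturity, 51.2, 48.9 and 47.9 in red at color break, while yellow at color break had 64.2, 61.8 and 64.2. Each red library was below each yellow library at the same stage. Red against yellow was -0.95 ± 0.04 on the log2 scale at maturity (1.93-fold lower in red, adjusted p = 4.52e-10), just under the minimum, and -0.36 ± 0.04 at color break (adjusted p = 1.27e-05). Maturity against color break was -0.52 ± 0.04 in red (adjusted p = 1.35e-07) and 0.07 ± 0.04 in yellow (adjusted p = 0.206, 95% interval -0.03 to 0.17). The ranking at maturity depended on the scaling: on log2(FPKM + 0.1) GAD2, at 1.01, was called between the lines and GABA-TP1 was not.

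GABA-TP3, the plastid transaminase gene, was the only one of the 5 to be called as lower in any comparison. It stood at 5.90, 5.48 and 5.57 FPKM in red at maturity, 8.43, 9.50 and 9.24 in yellow at maturity, 13.1, 14.6 and 12.2 in red at color break, while yellow at color break had 13.9, 13.3 and 13.7. The color break groups overlapped, and every maturity library was below every color break library. In red fruit GABA-TP3 fell 2.63-fold between the stages (-1.39 ± 0.07, adjusted p = 9.74e-10). In yellow fruit the change was -0.61 ± 0.07 (adjusted p = 1.03e-05), under the minimum. Red against yellow was -0.82 ± 0.07 at maturity (adjusted p = 4.49e-07), also under the minimum, and -0.04 ± 0.07 at color break (adjusted p = 0.706), with a 95% interval of -0.20 to 0.12. Seed markers moved with this gene: the 4 oleosin genes summed to 1.16 to 15.6 FPKM in red at maturity, 74.4 to 81.1 in yellow at maturity, 697 to 745 in red at color break and 418 to 452 in yellow at color break. Of these 4 genes, 2 were at 0 in some library of red at maturity, and all 4 fell between the stages in each tomato. The part of the seed markers in the result was not tested, for this gene or any other of the 5. In bulk tissue, fewer cells of a type and less RNA per cell cannot be told apart.

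**Figure D2:**
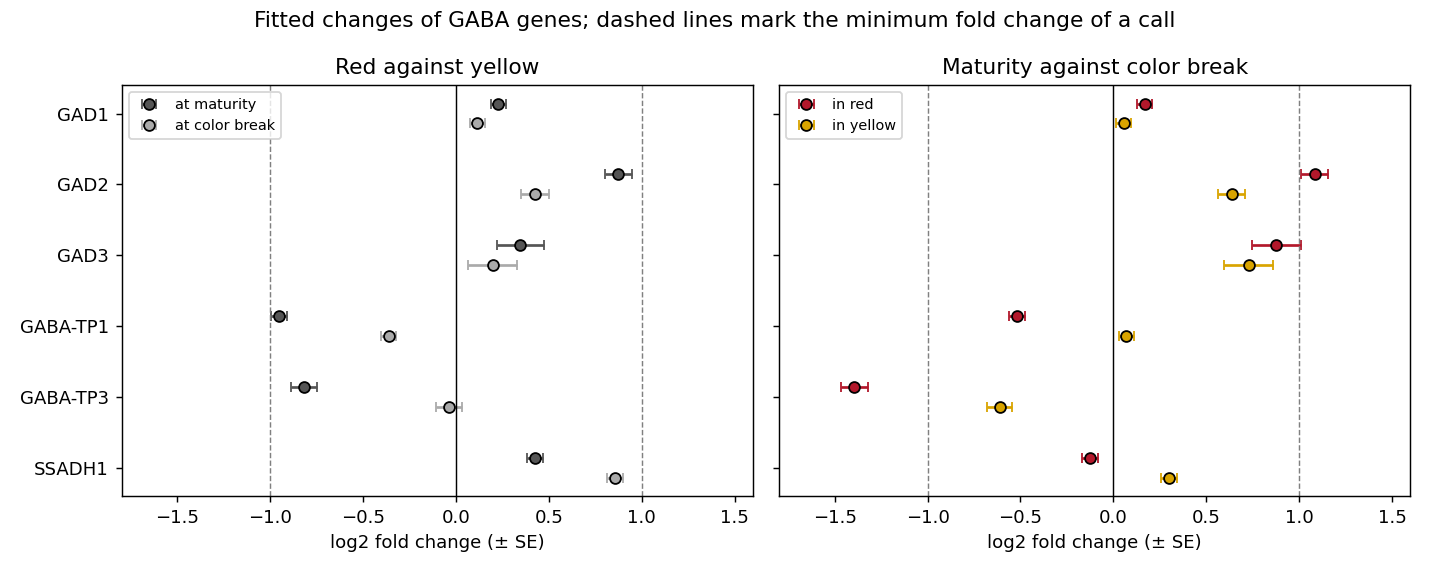
Log2 fold change (horizontal axis) with its SE for the 5 GABA genes and SSADH1 (vertical axis), red against yellow at each stage on the left and maturity against color break in each tomato on the right. Dashed lines mark the minimum change of a call; among the 5 GABA genes, GAD2 and GABA-TP3 in red fruit lie beyond them, at 1.09 and -1.39.

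Counted by comparison, maturity against color break in red called 2 of the 5 genes, GAD2 as higher and GABA-TP3 as lower, where 15.5% of all tested genes were called, 3.93% as higher and 11.5% as lower. The other comparisons called 0 of 5. The background there was 11.1% of tested genes for red against yellow at maturity (3.26% higher, 7.89% lower), 6.2% for red against yellow at color break (4.12% higher, 2.08% lower), and 6.35% for maturity against color break in yellow (1.47% higher, 4.88% lower). By the adjusted p alone, red against yellow passed for 5 of the 5 genes at maturity, with 57.1% of all tested genes passing, and for 3 at color break, with 41.5%. Maturity against color break passed for 5 in red (64.3% of all tested genes) and 3 in yellow (39.6%). The 5 genes were chosen by name, and how their counts compare with these shares was not tested. DESeq2 and limma on log2(FPKM + 1) also called 0 of 5 in the 3 comparisons without a call. At an unadjusted p under 0.05 the numbers of genes were the same as at an adjusted p. Libraries did not overlap for 5 of the 5 genes between red and yellow at maturity, where 64.9% of tested genes did not, and for 3 at color break, where the share was 56.1%. Between the stages they did not overlap for 5 in red (71.2% of tested genes) and 5 in yellow (55%).

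The stage changes of 3 of the 5 genes differed between the lines by the test of that difference. For GABA-TP3 the stage change in red minus that in yellow was -0.78 ± 0.10 on the log2 scale (adjusted p = 2.41e-05). For GABA-TP1 it was -0.59 ± 0.06 (adjusted p = 3.15e-06), and for GAD2 it was 0.45 ± 0.10 (adjusted p = 0.00286). None reached the minimum change in edgeR, DESeq2 or limma. Of all tested genes 12.2% were called, 3% as higher and 9.23% as lower, and 46.7% passed by adjusted p alone. GAD3 had 0.15 ± 0.18 (adjusted p = 0.537, 95% interval -0.28 to 0.57). GAD1 had 0.11 ± 0.05 (adjusted p = 0.105, or 0.00133 to 0.232 with single libraries left out), and 0.25 on log2(FPKM + 1), where the adjusted p was 0.00801.

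Summed over the genes, GAD levels were highest and transaminase levels lowest in red at maturity. The 3 GAD genes together held 388 ± 28.7 FPKM in red at maturity, 295 ± 0.969 in yellow at maturity, 301 ± 2.76 in red at color break, and yellow at color break held 276 ± 1.57. GABA-TP1 and GABA-TP3 together held 44.2 ± 2.29 FPKM in red at maturity, 76.7 ± 1.18 in yellow at maturity, 62.7 ± 2.24 in red at color break, and 77.1 ± 1.65 in yellow at color break. The ratio of these sums, in which the scaling of a library cancels out, was 8.79 ± 0.453 in red at maturity, 3.85 ± 0.0551 in yellow at maturity, 4.80 ± 0.214 in red at color break and 3.58 ± 0.0709 in yellow at color break. The lowest ratio in red at maturity, 8.32, was above the highest of any other group, 5.04. Nearly all of the GAD sum was GAD1, at 94.1% in red at maturity, 96.0% in yellow at maturity, 96.8% in red at color break and 97.3% in yellow at color break. The GAD2 share was 5.09% ± 0.401 in red at maturity, 3.31% ± 0.151 in yellow at maturity, 2.76% ± 0.0585 in red at color break and 2.24% ± 0.249 in yellow at color break. These are ratios of transcript levels and were not tested.

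**Figure D3:**
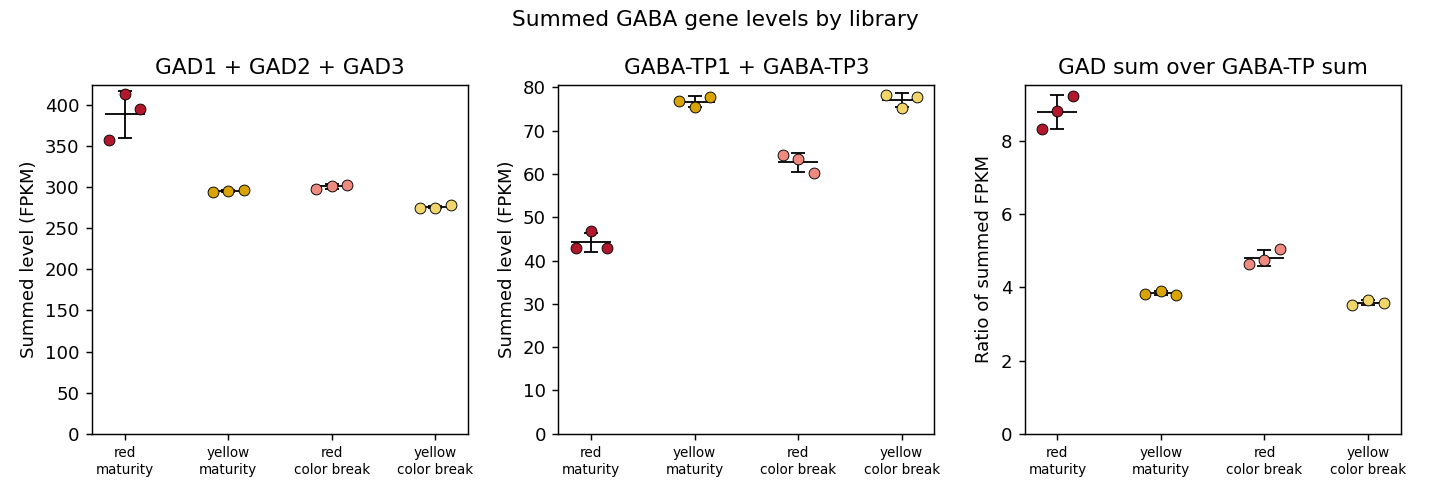
Summed FPKM of GAD1, GAD2 and GAD3 (left), summed FPKM of GABA-TP1 and GABA-TP3 (middle) and the ratio of the sums (right) in each library of the 4 groups, with mean and SD of 3. The ratio lies at 8.32 to 9.22 in red at maturity and at 3.52 to 5.04 in the other 3 groups.

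Downstream of the transaminases, SSADH1 (Solyc09g090700, chromosome 9, 70618770 to 70620338), the succinic semialdehyde dehydrogenase gene, was the more abundant in red at each stage. It held 78.8, 87.5 and 86.8 FPKM in red at maturity, 55.3, 59.4 and 56.5 in yellow at maturity, 83.1, 83.4 and 80.9 in red at color break, while yellow at color break had 43.7, 45.3 and 47.8. No red library overlapped with a yellow one. Red against yellow was 0.43 ± 0.04 at maturity (adjusted p = 1.67e-06) and 0.85 ± 0.04 at color break (adjusted p = 3.19e-09), both under the minimum. Maturity against color break was 0.30 ± 0.04 in yellow (adjusted p = 8.32e-05) and -0.13 ± 0.04 in red (adjusted p = 0.018), the second turning to 0.03 on log2(FPKM + 1). The difference of these stage changes was -0.43 ± 0.06 (adjusted p = 6.47e-05). GR1 (Solyc09g018790), annotated as a glyoxylate reductase of the kind that also reduces succinic semialdehyde, held 31.2 ± 2.90 FPKM in red at maturity, 31.2 ± 0.777 in yellow at maturity, 20.4 ± 0.615 in red at color break and 24.1 ± 0.0700 in yellow at color break. On the scaled counts red against yellow was -0.14 ± 0.05 at maturity (adjusted p = 0.0341) and -0.24 ± 0.05 at color break (adjusted p = 0.00249). Maturity against color break was 0.45 ± 0.05 in red (adjusted p = 4.9e-06) and 0.35 ± 0.05 in yellow (adjusted p = 0.000117), and none of these was called.

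The remaining shunt genes were near the detection limit. GABA-TP2 (Solyc12g006470), the cytosolic member of the family, which is also known as GAME12 for its role in steroidal glycoalkaloid synthesis, lies on chromosome 12 from 956592 to 962771, in the same region as GABA-TP3. It was listed at 0 in all 6 maturity libraries, against 30, 32 and 23 counts in red and 38, 32 and 34 counts in yellow at color break (0.211 to 0.306 FPKM). A further decarboxylase gene, Solyc04g025530, was listed at 0 in the 3 libraries of red at maturity, against 36, 23 and 8 counts in yellow at maturity. At color break it had 15, 0 and 9 counts in red and 8, 8 and 0 in yellow. Neither gene reached the minimum level for testing, and no fold change is given, because 686 genes of the table had a library at 0 beside a replicate with at least 20 counts. The identifier Solyc05g054050, a further decarboxylase gene, was not analysed here.

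Among the genes that make or use glutamate, the substrate of GAD, the NADH-dependent glutamate synthase gene had a larger log2 change in each of the 4 comparisons than any of the 5 GABA genes. This gene, Solyc03g083440, codes for an enzyme that joins glutamine and 2-oxoglutarate into glutamate. It held 16.3, 13.5 and 13.9 FPKM in red at maturity, 109, 114 and 112 in yellow at maturity, 73.4, 72.4 and 71.2 in red at color break, while yellow at color break had 190, 195 and 199, so that no groups overlapped. Red against yellow was -3.07 ± 0.07 on the log2 scale at maturity (adjusted p = 3.84e-13) and -1.43 ± 0.06 at color break (adjusted p = 6.87e-10), and the gene fell by 2.47 in red between the stages (adjusted p = 1.09e-12). In yellow its stage change was -0.83 ± 0.06 (adjusted p = 1.75e-07) and was not called. The difference of the stage changes was -1.64 ± 0.09 (adjusted p = 4.54e-09).

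A glutamine synthetase gene, Solyc04g014510, whose enzyme joins ammonium to glutamate, had its highest level in red at maturity. It held 32.7, 31.7 and 33.5 FPKM in red at maturity, 12.4, 13.6 and 13.3 in yellow at maturity, 10.7, 11.6 and 10.9 in red at color break, while yellow at color break had 5.88, 7.32 and 5.91. Every library of red at maturity was above every library of the other groups. The log2 fold change was 1.18 ± 0.08 for red against yellow at maturity (adjusted p = 1.84e-08) and 1.40 ± 0.08 for maturity against color break in red (adjusted p = 1.86e-09). In yellow it was 1.02 ± 0.08 (adjusted p = 2.73e-07), a call lost without replicate 1 or replicate 3 of yellow at color break (lowest value 0.97) and on log2(FPKM + 1). Solyc08g044270, an entry of 1010 bases annotated with glutamate synthase activity, had 12, 0 and 5 counts in red at maturity, 99, 86 and 73 in yellow at maturity, 316, 251 and 192 in red at color break, while yellow at color break had 254, 157 and 183. It was called as lower in red at maturity (-3.96 ± 0.48), and as lower at maturity than at color break in red (-5.52 ± 0.46) and in yellow (-1.22 ± 0.33), the last of which was not called on log2(FPKM + 1). The folds of red at maturity rest on counts near 0. Reads of similar glutamate synthase genes could be shared.

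Of the 16 genes of glutamate and 2-oxoglutarate enzymes, 12 were tested, and 1 was called higher and 2 lower in red against yellow at maturity, where 3.26% of all tested genes were higher and 7.89% lower (median log2 fold change -0.47, against 0.003 for all tested genes). At color break 0 were higher and 1 was lower (median -0.03), with 4.12% and 2.08% of all tested genes. Between the stages 1 rose and 2 fell in red (median -0.12), where 3.93% of all tested genes rose and 11.5% fell. In yellow 1 rose and 1 fell (median 0.09), where 1.47% of all tested genes rose and 4.88% fell. In the difference of the stage changes 2 were called lower, the NADH-dependent glutamate synthase gene and Solyc08g044270, and 0 higher, against 9.23% and 3% of all tested genes.

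Polyamine breakdown is a further source of GABA, through amine oxidases and aminoaldehyde dehydrogenases. Of 12 such genes, 6 were tested. At maturity against color break 1 rose and 2 fell in red, where 3.93% of all tested genes rose and 11.5% fell. In yellow 0 rose and 1 fell, with 1.47% and 4.88% of all tested genes. For red against yellow, 1 was higher at maturity, against 3.26% of all tested genes, and at color break the 6 log2 values ran from -0.56 to 0.67 with none past the minimum. The aminoaldehyde dehydrogenase gene Solyc06g071290 had 11, 19 and 19 counts in red at maturity against 212, 186 and 167 in red at color break (-3.61 ± 0.32, adjusted p = 2.98e-07). In yellow it had 26, 27 and 7 counts at maturity against 144, 97 and 114 at color break (-2.59 ± 0.32, adjusted p = 1.87e-05), a call lost on log2(FPKM + 1). The primary amine oxidase gene Solyc08g079430 fell by 1.91 ± 0.05 in red (adjusted p = 1.69e-12), with 7.11, 7.80 and 8.01 FPKM at maturity against 25.8, 26.3 and 25.2 at color break. In yellow it had 9.72, 9.47 and 10.7 FPKM at maturity against 18.7, 19.2 and 19.3 at color break (-0.96 ± 0.05, adjusted p = 7.22e-09), just under the minimum, which it passed without replicate 3 of yellow at maturity (-1.02). The polyamine oxidase gene Solyc01g087590 had 134, 192 and 196 counts in red at maturity, against 0, 0 and 16 in yellow at maturity and, in red at color break, 16, 0 and 0. Its log2 fold changes, 4.88 ± 1.02 and 4.92 ± 1.02 in edgeR, rested on single libraries: the first was 10.4 when replicate 3 of yellow at maturity was left out, the second likewise 10.4 when replicate 1 of red at color break was left out, and DESeq2 did not call them (adjusted p = 0.0942 and 0.0735).

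**Figure D4:**
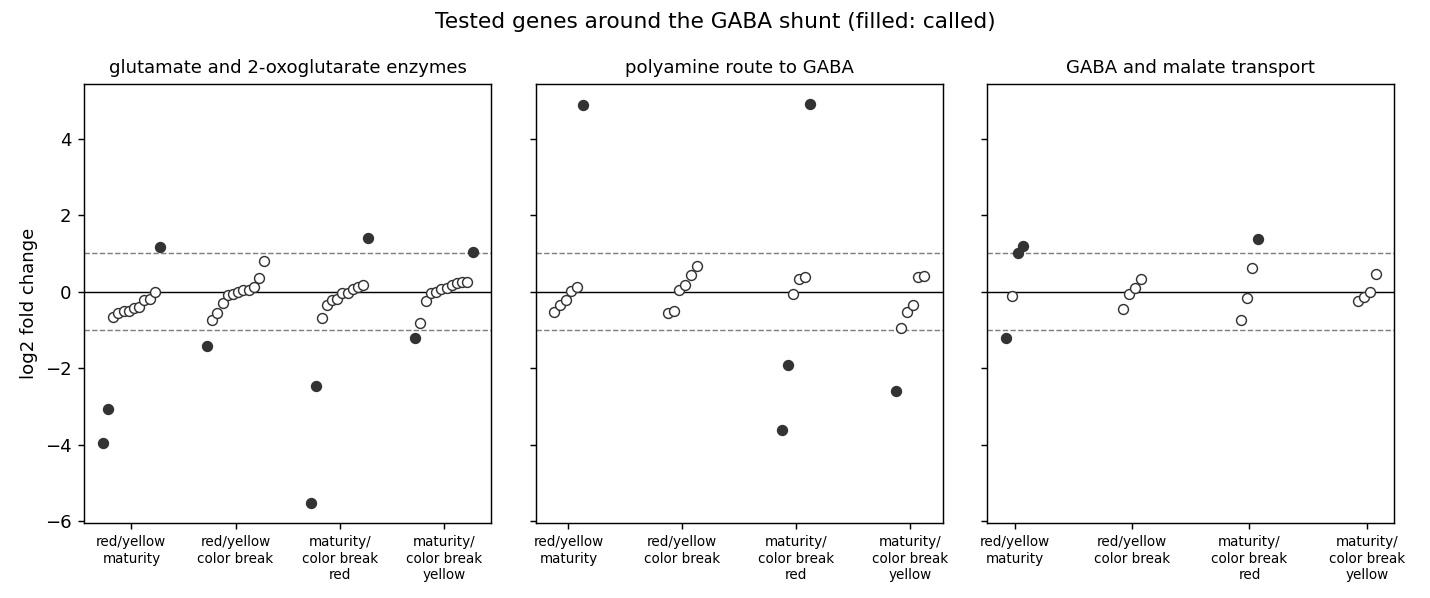
Log2 fold change (vertical axis) of each tested gene of 3 lists around the GABA shunt in the 4 comparisons (horizontal axis); filled points were called, open points were not, and dashed lines mark the minimum change. The lowest glutamate point at maturity against color break in red is Solyc08g044270 at -5.52.

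In the transport list, 4 of 5 genes were tested. CAT9 (Solyc10g018600), which in tomato exchanges GABA for glutamate and aspartate across the vacuole membrane, held 20.0, 21.3 and 23.2 FPKM in red at maturity, 20.1, 21.8 and 21.1 in yellow at maturity, 22.8, 21.4 and 20.8 in red at color break, while yellow at color break had 22.7, 22.1 and 22.9. Its red and yellow libraries overlapped at both stages, and the 95% interval of red against yellow was -0.23 to 0.02 at maturity and -0.18 to 0.06 at color break. On the scaled counts its stage change was -0.17 ± 0.05 in red (adjusted p = 0.0117) and -0.13 ± 0.05 in yellow (adjusted p = 0.0719), neither of them called. At maturity, 2 genes of the list were called higher in red and 1 lower, where 3.26% of all tested genes were higher and 7.89% lower. Solyc03g119640, an aluminum-activated malate transporter gene of a family whose channels GABA inhibits in other plants, had 1.97, 2.15 and 2.21 FPKM in red and 0.808, 0.847 and 0.826 in yellow (1.21 ± 0.18, adjusted p = 6.05e-05), and it was not called on log2(FPKM + 1). Solyc02g037510, described as a cationic amino acid transporter of the vacuole, was lower in red, with 22.2, 20.4 and 22.4 FPKM against 44.4, 47.5 and 43.9 in yellow (-1.20 ± 0.05, adjusted p = 1.72e-10). The call of Solyc12g011370, of the same family, at 1.02 ± 0.25 (adjusted p = 0.00353), was lost without any of 4 single libraries (8 of 12 fits called it): replicates 1 and 2 of red and replicates 1 and 3 of yellow at maturity. It rose by 1.39 ± 0.26 in red between the stages, and on log2(FPKM + 1) neither call was made.

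Across the 12 libraries, which share depth and the 4 groups, log2(FPKM + 1) of GAD2 and GAD3 had a Pearson correlation of 0.95, GAD1 and GAD2 of 0.93 and GAD1 and GAD3 of 0.83. The transaminase genes had 0.59 with each other. Correlations between a GAD gene and a transaminase gene were all negative, the farthest from 0 being -0.97 for GAD3 and GABA-TP3 and the nearest -0.57 for GAD3 and GABA-TP1. Many other genes followed the same patterns: of 15973 genes compared, 416 had a correlation above 0.95 with GAD2, 327 with GAD1, 296 with GABA-TP3, 223 with GAD3 and 66 with GABA-TP1. All of these correlations use the deposited FPKM, which ran higher than the scaled counts in red at maturity. The share of this scaling in them was not tested.

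Among genes with a symbol or description, those most like each GABA gene were of varied kinds. For GAD1 they were a Beclin-1-like gene (Solyc05g050390, r = 0.987), a phospholipase gene (Solyc11g008550, 0.984) and a THO complex gene (Solyc01g096600, 0.983). For GAD2 they were a diacylglycerol kinase gene (Solyc12g039180, 0.989), a gene described as a WRKY factor (Solyc09g066010, 0.988) and a thioredoxin gene (Solyc03g118550, 0.988). For GAD3 they were a small heat shock gene (Solyc07g064020, 0.986), the Argonaute gene AGO2A2 (Solyc02g069260, 0.985) and Solyc04g057870 (0.985). GABA-TP1 was most like a polyol transporter gene (Solyc12g010690, 0.985), a uroporphyrinogen decarboxylase gene (Solyc10g007320, 0.980) and an aminomethyltransferase gene (Solyc02g080810, 0.974). GABA-TP3 was most like an endoglucanase gene (Solyc08g082250, 0.990), a signal peptide peptidase gene (Solyc08g081180, 0.990) and the oleosin gene Solyc06g060840 (0.989), which is one of the 4 seed markers. The polyol transporter gene showed the line difference of GABA-TP1 on a wider scale, with 2.04 ± 0.222 FPKM in red at maturity, 10.1 ± 0.615 in yellow at maturity, 4.20 ± 0.377 in red at color break and 10.3 ± 0.380 in yellow at color break.

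Of the genes beside the GABA genes on the chromosome, none of those tested was called in any comparison. Of all tested genes, 11.1% were called for red against yellow at maturity and 15.5% for maturity against color break in red. With so few neighbors, the lack of a call cannot set them apart from other genes. GAD1 is separated by 619 bases from Solyc03g098230, a D-cysteine desulfhydrase gene on the same strand, whose log2 fold change for red against yellow at maturity was -0.65 ± 0.04 (adjusted p = 4.64e-09), against 0.23 for GAD1. On its other side, 538 bases away, the DNA polymerase epsilon subunit gene Solyc03g098250 had -0.04 ± 0.10. The neighbors of GAD2 are Solyc11g011910, at 568 bases, with 0.18 ± 0.03 at maturity, and the isocitrate dehydrogenase gene Solyc11g011930, at 4499 bases, with -0.20 ± 0.05, against 0.87 for GAD2. Solyc11g011930 makes 2-oxoglutarate, the precursor of glutamate. The neighbors of GABA-TP1 are farther away: Solyc07g043270 at 49563 bases, on the opposite strand, and Solyc07g043320 at 14693 bases. They had 0.27 ± 0.04 (Solyc07g043270) and 0.36 ± 0.07 (Solyc07g043320) at maturity, against -0.95 for GABA-TP1 itself. In red, maturity against color break was -0.60 (Solyc03g098230) and 0.80 (Solyc03g098250) for the neighbors of GAD1, against 0.17 for GAD1. It was 0.26 (Solyc11g011910) and 0.11 (Solyc11g011930) for those of GAD2, against 1.085 for GAD2. For those of GABA-TP1 it was 0.60 (Solyc07g043270) and 0.32 (Solyc07g043320), against -0.52 for GABA-TP1. Whether neighbors changed together was not tested. The neighbors of GABA-TP3 and the neighbor of GAD3 were under the minimum level for testing.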

How the data were processed

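Polyadenylated RNA of tomato fruits was sequenced as paired reads in strand-marked (dUTP) libraries on an Illumina instrument, per the labels' protocols. The submitters' processing notes list HISAT2 2.2.1, cutadapt 1.9, edgeR, DESeq2 and StringTie 2.1.6 without stating what each did. The sources used here do not give the genome build, annotation or strand setting. The authors deposited whole-number counts, taken as raw counts, and FPKM values per gene and library, in 1 table whose columns carry the library names.

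Counts of all 12 libraries entered 1 edgeR 4.0.16 quasi-likelihood fit (R 4.3.3, TMM scaling, 1 mean per group), with Benjamini-Hochberg adjustment over the 15974 tested genes. Standard errors follow from the test statistic, and 95% intervals use 8 residual degrees of freedom. Alternatives used DESeq2 1.42.0, limma 3.58.1 with pseudocounts of 1 or 0.1, other scalings and filters, left-out libraries and a replicate block. The fit was tested on simulated data. Replicate pairs all differed by more than sampling noise, with chi-square values of 5.29 to 31.2 times their degrees of freedom. Same-numbered libraries did not deviate together (correlations -0.106 to 0.082 over 18 pairs), so the numbers were not taken as pairs.

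The members and lists were chosen with earlier results of these data known. The text names the 5 genes, every other gene of the shunt list, up to 4 called genes of each further list, and the 3 described genes most correlated with each of the 5. List members were matched by identifier or description, and after the table was read further ones were added by the enzyme number or activity it gives. Chromosomal neighbors, PG2A and E8 were chosen after the values were seen. Sequences were not analysed here.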

Additional observations from a re-analysis of the deposited data

Results flagged for a closer look

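Among the tested genes of the GABA shunt, the stage change differed between red and yellow fruit in 4, by edgeR's test of the difference. GAD1, GAD3 and GR1 did not pass this test (adjusted p = 0.105, 0.537 and 0.303). In the 4 genes that passed, the difference, red minus yellow on the log2 scale, was 0.45 for GAD2, -0.59 for GABA-TP1, -0.78 for GABA-TP3 and -0.43 for SSADH1. GABA-TP1 had -0.52 in red and 0.07 in yellow, where the 95% interval of -0.03 to 0.17 included 0. SSADH1 had -0.13 in red, which turned to 0.03 on log2(FPKM + 1), and 0.30 in yellow. GAD2 had 1.09 in red and 0.64 in yellow, and GABA-TP3 had -1.39 in red and -0.61 in yellow. Of all tested genes, 46.7% passed this test by adjusted p.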

How the results depend on the processing

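The calls of GAD2 and GABA-TP3 for maturity against color break in red, and the lack of a call for the members in the other comparisons, held under other scalings, filters, DESeq2, limma on log2(FPKM + 1), fits of only the groups compared, and each left-out library, with 1 exception. On log2(FPKM + 0.1) GAD2 was called for red against yellow at maturity (1.01), which moved that count of members to 1. With no minimum fold change the counts of members were 5 for red against yellow at maturity, 3 at color break, 5 for maturity against color break in red, 3 in yellow, and 3 for the difference of the stage changes. With single libraries left out, the lowest and the highest count were both 2 for maturity against color break in red and both 0 for the others. With the replicate number as a block the counts were again 2 in red between the stages and 0 elsewhere, so the block changed no call. Most values missed the minimum by fold size, so this cannot show whether same-numbered libraries are pairs. With counts per length on TMM library sizes the GAD sum was 356 in red at maturity and 298 in yellow at maturity. In an alternative chosen after seeing the data, without the genes added by enzyme number or activity, the called glutamate genes were 1 in yellow between the stages and 1 in the difference of the stage changes, and the called polyamine genes 1 in red and 0 in yellow between the stages. Depth limits the statements on GABA-TP2 and Solyc04g025530, which had at most 38 counts in a library.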
